A study of Mus musculus with 2 samples.

Results

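The nuclear-encoded subunits of the respiratory chain and of ATP synthase were examined in single nuclei of the mouse ventrolateral periaqueductal gray (vlPAG). Members were taken by symbol (Nduf genes of the a, b, c, s and v series, Uqcr genes, Cox4 to Cox8 genes, Atp5 genes, and Sdha, Sdhb, Sdhc and Sdhd, without pseudogenes). A member also needed at least 100 unique molecular identifiers (UMIs, counted molecules) over both libraries. Of 89 annotated genes with such symbols, 79 reached 100 UMIs, among 16345 of 55450 genes that did. They comprised 34 genes of complex I, 4 of complex II, 8 of complex III, 15 of complex IV, 17 of complex V and Atp5s, an ATP synthase associated gene kept outside the complexes. The lowest members inside the limit were Ndufa4l2 with 128 UMIs and Cox6b2 with 154. Outside it were Cox4i2 with 72 UMIs, Ndufs6b with 54, Cox7a1 with 38, Ndufa11b with 34, Cox6a2 with 4, Cox8b and Cox8c with 2 each, and Ndufa13, Ndufb4c and Cox4i1 with 0. Cox4i1 and Ndufa13, major subunits in most tissues, overlap Gm20388 and Yjefn3 on the same strand, and were read as not measured here.

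Complexes I to IV of the inner mitochondrial membrane pass electrons from NADH and succinate to oxygen and, except for complex II, pump protons, and complex V uses the proton gradient to make ATP. Most subunits are encoded in the nucleus and imported, while a small set of core subunits of complexes I, III, IV and V comes from mitochondrial DNA. Neurons depend on this pathway for ion pumping, and several complex IV subunits exist as isoforms that differ between tissues.

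The study compared wild-type C57/BL6J mice kept on a normal food diet (NFD) or a high-fat diet (HFD) for 7 weeks from 8 weeks of age, and asked how obesity alters vlPAG cells, GABAergic cells among them. Each diet gave 1 library, made from dissected and frozen vlPAG sections of 18 perfused mice pooled before nuclei were isolated for 10x 3′ sequencing with a capture target of 8000 nuclei. No animal can be told from another within a pool, so no difference between diets could be tested, and diet cannot be told apart from library. The sole spread available is counting error, which all intervals below cover (95%, exact) and which leaves out the spread between mice, dissections and libraries.

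The NFD library kept 7500 nuclei (more than 500 UMIs and under 20% mitochondrially encoded UMIs) with 41042988 UMIs and a median of 4504.5 UMIs per nucleus. The HFD library kept 6322 nuclei with 54587419 UMIs and a median of 7347.5. Both libraries held 13 barcodes in common. Mitochondrially encoded transcripts made up 0.552% of NFD and 0.481% of HFD UMIs. Of 24 clusters, 1 was granule neuron-like and held 10 NFD and 766 HFD nuclei.

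Summed over all nuclei, the 79 genes measured lower in the HFD library. They took 87545 UMIs or 2133 CPM (UMIs scaled to a common total for the nuclei summed) in NFD nuclei (95% interval 2119 to 2147). HFD nuclei gave 104245 UMIs or 1910 CPM (1898 to 1921). The log2 ratio of HFD to NFD was -0.16 (-0.17 to -0.15). Members below a ratio of 0 on the log2 scale numbered 70 of 79, where 58.5% of all 16345 genes were below 0. A gene was called where its ratio lay at least 0.32 from 0 on the log2 scale and the counting interval left out 0. By that rule 12 members were lower, beside 11.6% of all genes, and 0 were higher, beside 4.56% of all genes. A count of 12 in 79 is near the background, while the count of 70 below 0 is above its background. The median member ratio was -0.17, against a median of -0.04 over all genes. The barcodes left out for few UMIs or a high mitochondrial share (125 NFD and 491 HFD) held the members at 17567 and 15853 CPM. With all deposited barcodes the log2 ratio was -0.093 (-0.11 to -0.080), and 5 members were called lower. The share of all genes was not counted at that setting, so this count has no background.

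**Figure D1:**
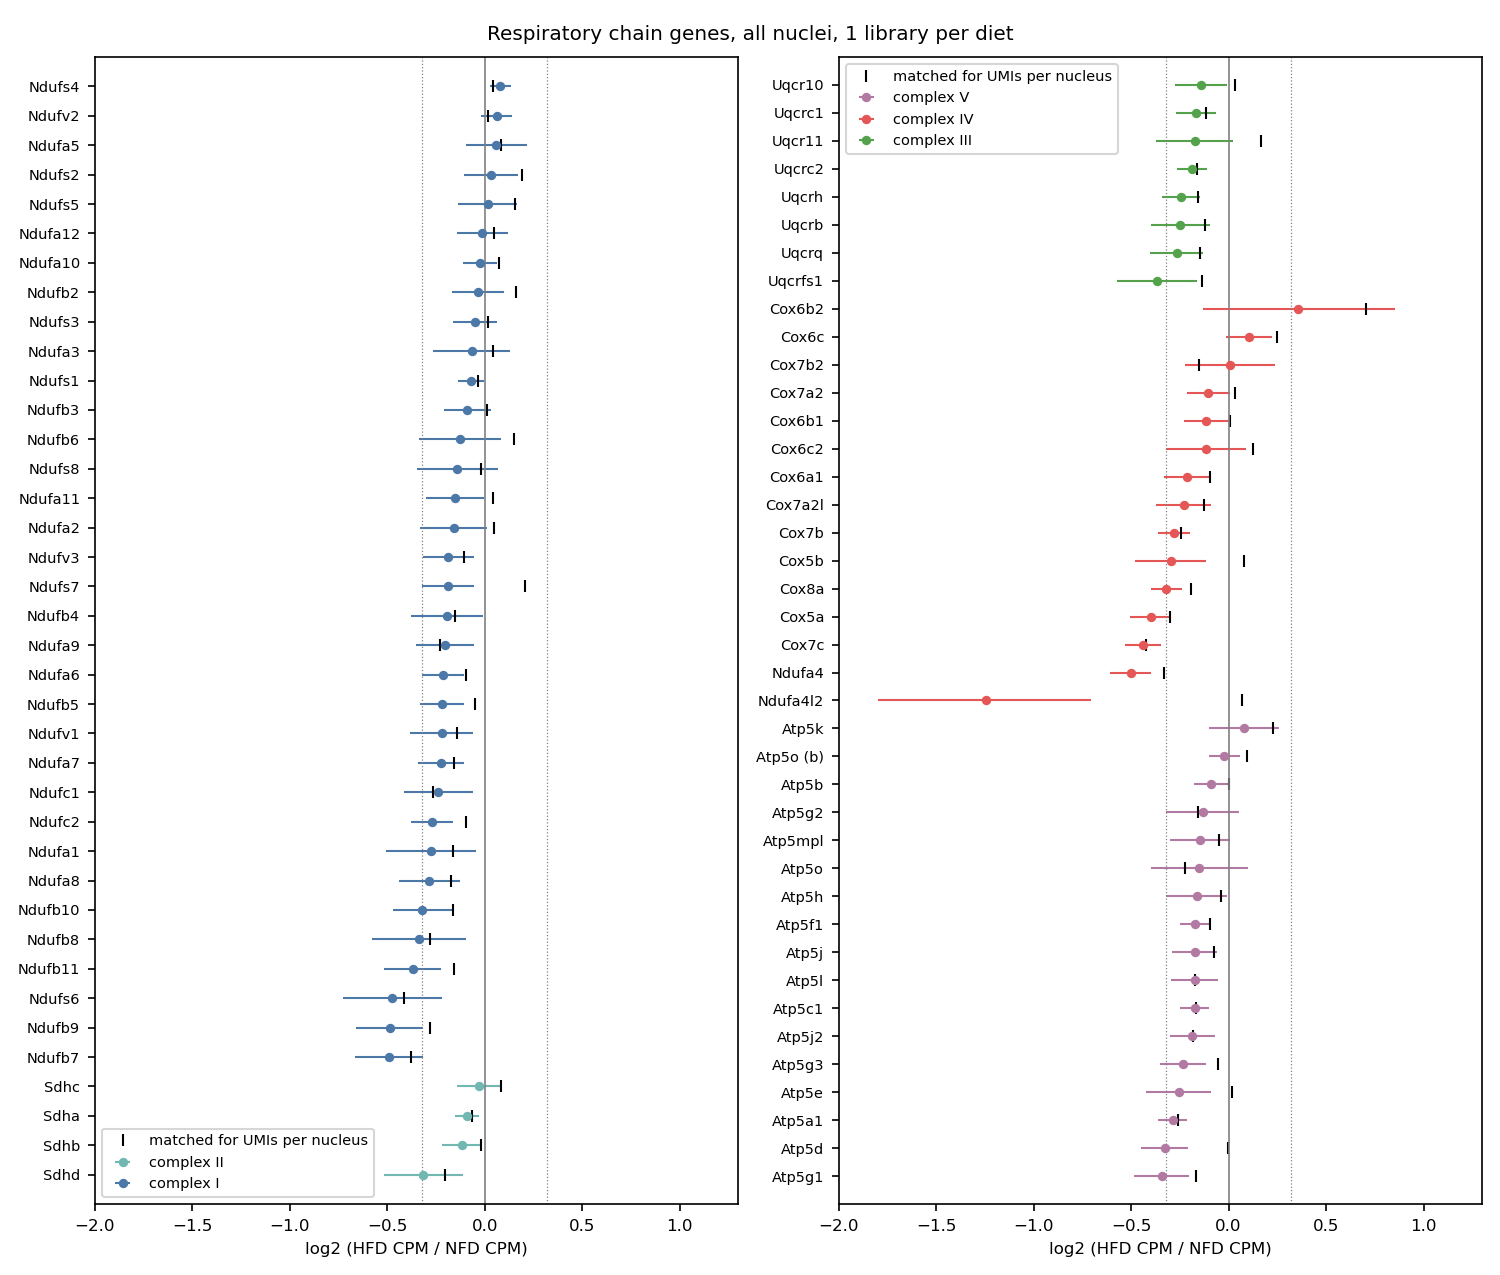
Log2 ratio of HFD to NFD CPM for each of the 78 genes in complexes I to V (Atp5s is not drawn, and Atp5o (b) is the identifier that overlaps Donson), all nuclei, ordered by complex, with points for the ratio, bars for the 95% counting interval, dotted lines at 0.32 on either side of 0 and black ticks for the ratio after matching UMIs per nucleus. Most genes lie left of 0, Ndufa4l2 lowest at -1.25, and matching moves it to 0.07.

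Complex I, the NADH dehydrogenase, held the largest share of the members' UMIs, 38.2% in NFD and 39.8% in HFD. Its 34 genes summed to 815 CPM on NFD and 759 CPM on HFD (log2 ratio -0.10, -0.12 to -0.08). Of these genes 29 were below 0, where 58.5% of all genes were, and 5 were called lower, beside 11.6% of all genes. The lowest were accessory subunits. Ndufb7, of the membrane arm, had 555 NFD and 525 HFD UMIs (13.5 and 9.62 CPM, log2 ratio -0.49, -0.67 to -0.32). Ndufb9 of the same arm, which overlaps another gene on its strand, had 564 and 535 UMIs (log2 ratio -0.49). Ndufs6, of the arm that binds NADH, had 263 and 252 UMIs (log2 ratio -0.47). The NFD library gave more UMIs of each of these genes although its total was smaller. At the other end were Ndufs4, an accessory subunit whose loss in mice causes a fatal encephalopathy, and the iron-sulfur subunit Ndufv2. Ndufs4 had 4912 UMIs (120 CPM) on NFD and 6908 UMIs (127 CPM) on HFD (log2 ratio 0.08, 0.03 to 0.13) and was the one member whose interval lay above 0. Ndufv2 gave 52.8 and 55.1 CPM (0.06, -0.02 to 0.14) and Ndufa5 14.3 and 14.9 CPM (0.06).

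Complex II, succinate dehydrogenase, is the enzyme that the citric acid cycle and the respiratory chain share, and its subunits are all nuclear-encoded. It gave 162 CPM in NFD and 151 CPM in HFD (log2 ratio -0.10, -0.15 to -0.05), with no member called. Sdha, the flavoprotein that oxidises succinate, had 3788 NFD and 4724 HFD UMIs (92.3 and 86.5 CPM, -0.09, -0.15 to -0.03). Sdhb, the iron-sulfur subunit, gave 32.9 and 30.4 CPM (-0.12). The membrane anchors differed most from each other, with Sdhc at 27.5 and 27.0 CPM (-0.03, -0.14 to 0.08) and Sdhd at 9.43 and 7.58 CPM (-0.31, -0.52 to -0.11). Their intervals overlap.

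In complex III, which passes electrons from ubiquinol to cytochrome c, all 8 genes were below 0, where 58.5% of all genes were. Their sum reached 215 CPM with NFD and 186 CPM with HFD (log2 ratio -0.21, -0.25 to -0.17). Uqcrfs1, the Rieske iron-sulfur protein, was the 1 gene called lower, beside 11.6% of all genes, with 393 and 405 UMIs (9.58 and 7.42 CPM, -0.37, -0.57 to -0.16). The small subunits Uqcrq and Uqcrb gave log2 ratios of -0.26 and -0.25. The smallest differences were those of Uqcr10 (829 and 1000 UMIs, -0.14), Uqcrc1 (1401 and 1660 UMIs, -0.17) and Uqcr11 (397 and 468 UMIs, -0.17).

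Complex IV, cytochrome c oxidase, had the lowest ratio of the 5 complexes. Its genes summed to 396 CPM with NFD and 329 CPM with HFD (log2 ratio -0.27, -0.30 to -0.24), and its share of the members' UMIs was 18.6% in NFD and 17.2% in HFD. Ndufa4, a subunit first assigned to complex I, had 1507 UMIs (36.7 CPM) in NFD and 1416 UMIs (25.9 CPM) in HFD (-0.50, -0.61 to -0.40). Cox7c gave 47.7 and 35.3 CPM (-0.44, -0.53 to -0.35) and Cox5a 36.9 and 28.0 CPM (-0.40, -0.50 to -0.30). Both are structural subunits around the mitochondrially encoded core. Cox8a, another of these small subunits, gave 60.0 and 48.1 CPM (-0.32). Cox6c (24.4 and 26.2 CPM, 0.10, -0.01 to 0.22) and Cox7b2 (6.53 and 6.56 CPM, 0.01) did not measure lower, and Cox7a2 gave -0.10. Cox6b2, the testis-type isoform of Cox6b1, had 57 and 97 UMIs (0.36, -0.13 to 0.85). Reads of Cox6c may be shared with Cox6c2, a copy with no introns, so the values of that pair are uncertain.

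Complex V, ATP synthase, gave 519 CPM in NFD and 460 CPM in HFD (log2 ratio -0.17, -0.20 to -0.15). Of its genes 16 of 17 were below 0, where 58.5% of all genes were, and 2 were called lower, beside 11.6%. Those called were Atp5g1, which encodes the c subunit of the rotor ring (19.6 and 15.4 CPM, -0.34), and Atp5d, the delta subunit of the central stalk (27.2 and 21.7 CPM, -0.33). The alpha subunit gene Atp5a1 had 2743 and 2991 UMIs (66.8 and 54.8 CPM, -0.29), and its catalytic partner Atp5b 2005 and 2505 UMIs (48.9 and 45.9 CPM, -0.09). Atp5k, subunit e of the membrane part, was the one gene above 0 (437 and 614 UMIs, 0.08, -0.10 to 0.26). Atp5o, the stalk subunit that confers oligomycin sensitivity, is annotated under 2 identifiers that overlap. The one that also overlaps Donson and Cryzl1 (chr16:91684398-91926982, GRCm38) gave 56.3 and 55.4 CPM (-0.02).

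Nuclei of the HFD library were deeper, and the members' share of UMIs moved with depth within each library. Among GABAergic-like nuclei the NFD value went from 2657 CPM in nuclei of 2000 to 3000 UMIs to 1850 CPM in those above 16000. The HFD value went from 2896 to 1745 CPM over the same bins. Nuclei were weighted so that both libraries had the same UMI distribution within each cluster, an alternative chosen after the data were seen. The matched set held 5623 of 7500 NFD and 4661 of 6322 HFD nuclei, so nuclei and weights changed together. Matching brought the log2 ratio of all 79 genes from -0.16 to -0.07 (-0.09 to -0.06). Complex I then stood at -0.02 (-0.04 to 0.00), complex II at -0.04, complex III at -0.12, complex IV at -0.16 (-0.19 to -0.12) and complex V at -0.09. After matching, 4 of 79 members were called lower, beside 8.66% of all genes, and 1 higher, beside 5.36%, while 50 were below 0, where 48.9% of all genes were. Cox7c (-0.43, -0.53 to -0.32), Ndufs6 (-0.41), Ndufb7 (-0.38) and Ndufa4 (-0.33) were those called lower, and Cox6b2 (0.71, 0.16 to 1.27) the one called higher. Cox5a moved to -0.30 and Atp5d to a ratio near 0. The complexes kept unequal ratios after matching, with complex IV lowest.

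**Figure D2:**
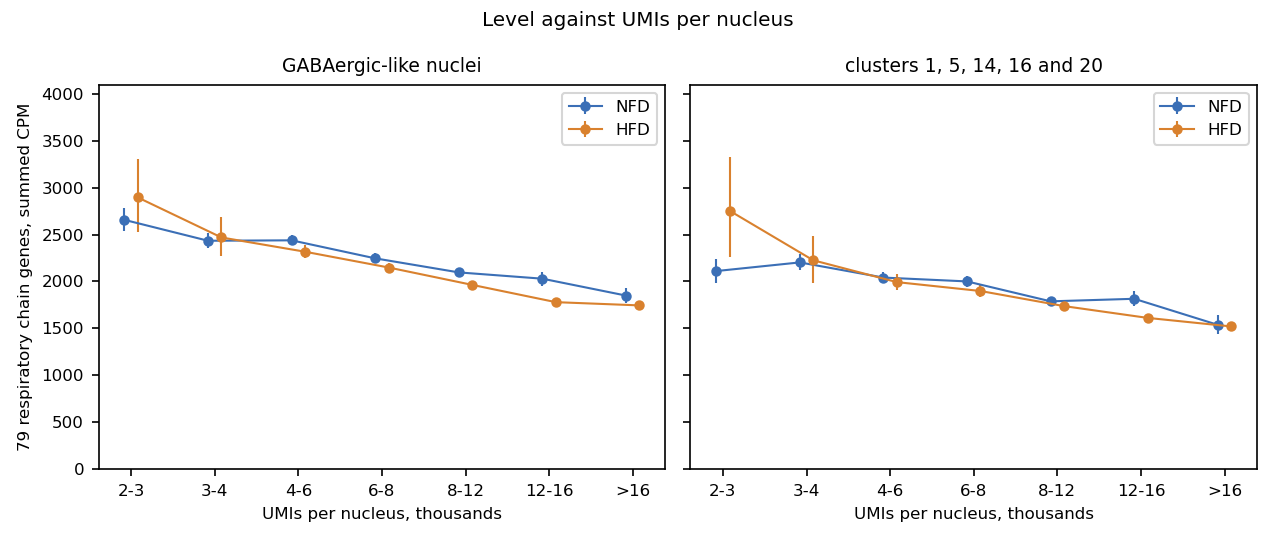
Summed CPM of the 79 genes against 7 bins of UMIs per nucleus (from 2000 UMIs upward), for GABAergic-like nuclei and for clusters 1, 5, 14, 16 and 20, with one line per library and bars for the 95% Poisson interval. The level is lowest in the deepest nuclei of each library in both panels, and among GABAergic-like nuclei HFD lies below NFD in every bin from 4000 UMIs upward.

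GABAergic-like nuclei, named from the GABA synthesis and vesicle genes, were clusters 2, 3, 4, 7 and 9 with 2388 NFD and 2100 HFD nuclei. Cluster 4 (501 NFD and 524 HFD nuclei) passed the 2-fold rule narrowly, with these genes at 242 CPM beside glutamate transporter genes at 114 CPM. The GABAergic-like nuclei gave 2237 CPM in NFD and 1938 CPM in HFD (log2 ratio -0.21, -0.23 to -0.19), and the single clusters ranged from -0.25 to -0.16. Of their 77 measured members 70 were below 0, where 59.3% of all genes were. Of the 77 members with at least 100 UMIs there, 23 were called lower, beside 10.5% of all genes, and 0 higher, beside 2.79%. With UMIs per nucleus matched, 7 of 77 were lower, beside 7.9%, and 2 higher, beside 5.04%, while 53 stayed below 0 where 49.2% of all genes did. Matching thus took the sum to -0.08 (-0.10 to -0.06). Ndufb7 stood lowest with 214 NFD and 158 HFD UMIs (14.1 and 7.48 CPM, -0.92, -1.23 to -0.62). Ndufs6 (103 and 88 UMIs) gave -0.71, Ndufa4 (598 and 557 UMIs) -0.58, Cox7c (729 and 731 UMIs) -0.48 and Cox8a (899 and 913 UMIs) -0.46. Ndufs4 gave 127 and 130 CPM (0.04) in the same nuclei.

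Clusters 1, 5, 14, 16 and 20 expressed glutamate transporter genes but too few fixed markers to be given a class name (1854 NFD and 1499 HFD nuclei). Their members summed to 1936 CPM in NFD and 1694 CPM in HFD (-0.19, -0.22 to -0.17), with 24 of 77 called lower beside 11.3% of all genes and 0 higher beside 3.3%, and with 64 below 0 where 58.8% of all genes were. Matched for depth, 6 of 76 were lower, beside 8%, and 7 higher, beside 7.17%, and 45 below 0, where 46.8% of all genes were, with a summed ratio of -0.05 (-0.08 to -0.03). Ndufb8, of the membrane arm of complex I, was lowest (91 and 67 UMIs, -0.89, -1.37 to -0.42), followed by Ndufs6 (-0.79) and Ndufb9 (-0.68). Ndufb2 was highest, with 199 and 333 UMIs (0.29, 0.03 to 0.55). The difference between this set and the GABAergic-like nuclei was not tested.

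Other groups held too few UMIs for most members. Among serotonergic-like nuclei (248 NFD and 168 HFD) 26 members were measured. Of these 2 were lower, beside 7.28% of all genes, 0 higher, beside 6.49%, and 18 below 0, where 51.4% of all genes were. Astrocyte-like nuclei (clusters 8 and 21) gave 14 measured members, 0 lower, beside 9.68%, and 1 higher, beside 14.4%, namely Ndufs4 (129 and 230 UMIs, 0.42, 0.10 to 0.74). Ependymal-like nuclei gave 11 measured members, with Cox8a lower (100 and 139 UMIs, -0.74), beside 8.98%, and 7 below 0, where 40.6% of all genes were. In the endothelial-like cluster 26 members were measured, with 8 below 0, where 39.7% of all genes were, 0 lower, beside 16.9%, and 4 higher, beside 24.5%. The latter were Cox7a2 (58 and 60 UMIs, 0.74), Uqcr11 (52 and 53 UMIs, 0.72), Atp5j2 (52 and 50 UMIs, 0.64) and Cox6b1 (60 and 57 UMIs, 0.62).

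Across cell groups the levels differed far more than between diets. Neuron-like nuclei (5887 NFD and 4422 HFD) were the GABAergic-like, serotonergic-like and glutamate transporter clusters with clusters 0 and 13, whose transmitter genes were mixed. Granule neuron-like nuclei were left out of this set. Neuron-like nuclei gave 2009 CPM in NFD and 1798 CPM in HFD. Serotonergic-like nuclei lay below them, at 1653 and 1538 CPM, and oligodendrocyte precursor-like nuclei were lowest of the named groups, at 1283 and 1106 CPM. Astrocyte-like nuclei (2032 and 1902 CPM), microglia-like nuclei (2238 and 1825 CPM) and fibroblast-like nuclei (2113 and 2288 CPM) lay near the neurons, and oligodendrocyte-like nuclei gave 1960 and 1634 CPM. Of the 2 astrocyte-like clusters, cluster 21 (64 NFD and 78 HFD nuclei) had medians of 4813 and 7977 UMIs, against 1775.5 and 2708 in cluster 8. Its GABA genes stood at 128 CPM and its glutamate transporter genes at 77.6 CPM, against 18.0 and 7.49 CPM. The part of neuronal RNA in cluster 21 was not tested. Ependymal-like nuclei, the ciliated lining of the aqueduct, stood at 4107 CPM in NFD (105 nuclei) and 3670 CPM in HFD (173 nuclei). Cluster 12 (295 NFD and 84 HFD nuclei) also met the ependymal marker rule. It was kept apart and unnamed, since Kit, Gldc and Pvalb stood among its leading genes. The endothelial-like cluster stood at 5396 CPM in NFD (256 nuclei) and 5841 CPM in HFD (96 nuclei), 2.60-fold and 3.11-fold over all other nuclei of the same library. The endothelial-like and ependymal-like groups stood above every other named group in both libraries. Groups were not matched for UMIs per nucleus, with which the members' share moved. Medians were 5928 and 16639 UMIs in serotonergic-like, 936 and 1409 in microglia-like and 1573.5 and 2596.5 in endothelial-like nuclei. The part of depth in the differences between groups was not tested.

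Cytosolic ribosomal protein and mitochondrially encoded transcripts, whose RNA lies mainly in the cytoplasm and in mitochondria, were also high in these groups. Ribosomal protein genes gave 7703 CPM in NFD and 9301 CPM in HFD in the endothelial-like cluster and 3959 and 3641 CPM in the ependymal-like one, against 1719 and 1574 CPM over all nuclei. Mitochondrially encoded UMIs were 1.88% and 2.32% of the endothelial-like and 5.94% and 5.64% of the ependymal-like total. Cluster 19, unnamed and led by S100b, Aldoc, Pcp2 and mt-Rnr2, went furthest, with 16436 CPM of the members in NFD (82 nuclei) and 10836 CPM in HFD (139 nuclei). Its ribosomal protein genes gave 15571 and 9424 CPM and its mitochondrially encoded share 10.6% and 9.90%. The part of cytoplasmic RNA in these levels was not tested.

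**Figure D3:**
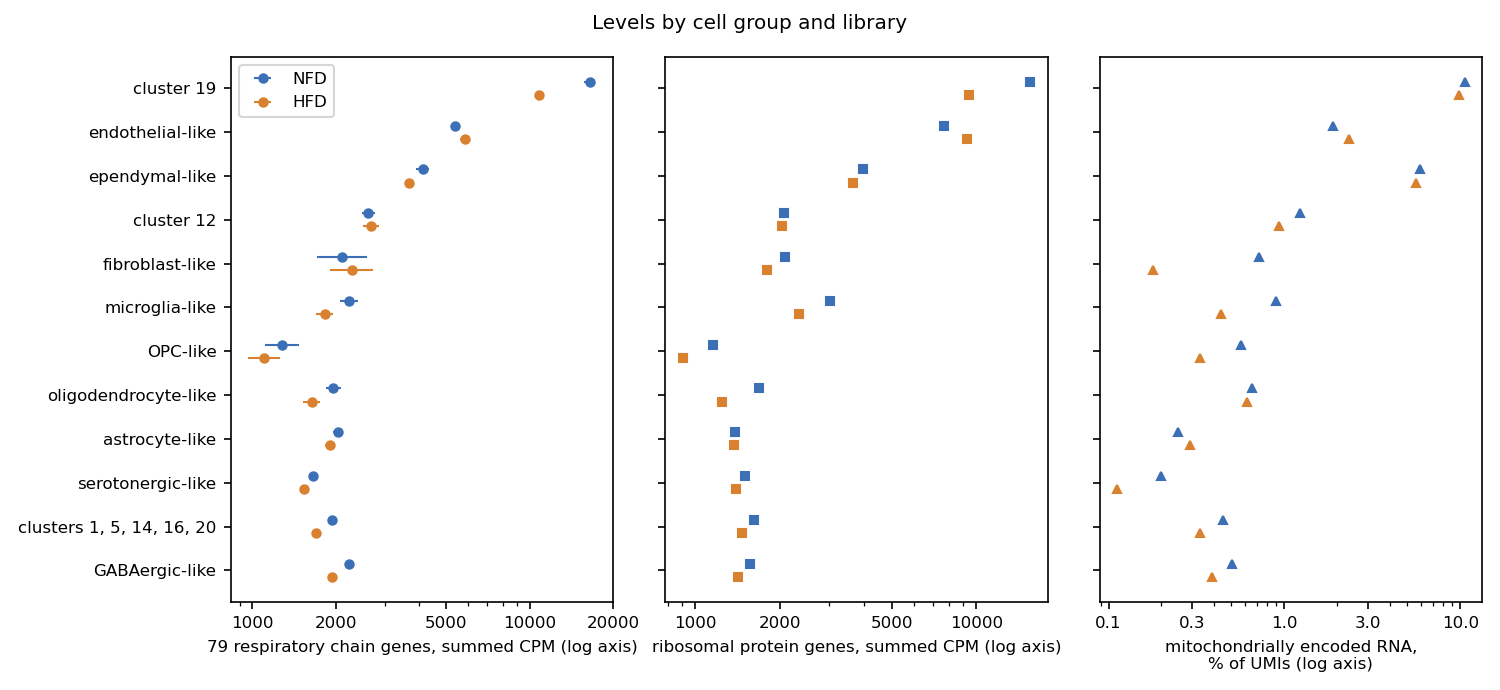
Summed CPM of the 79 genes (bars, 95% Poisson interval), summed CPM of ribosomal protein genes and percent of UMIs from mitochondrially encoded genes, each on a log axis, by cell group and library. The endothelial-like and ependymal-like groups and cluster 19 lie to the right of the other groups in all 3 panels.

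In the endothelial-like cluster 49 of 79 members were at least 2-fold higher than in all other nuclei in both libraries, beside 15.2% of all genes. The complexes took unequal parts in it, with 23 of 34 genes of complex I, 0 of 4 of complex II, 6 of 8 of complex III, 11 of 15 of complex IV and 9 of 17 of complex V. Sums over the rest, as log2 ratios in NFD and HFD, were 0.37 and 0.40 for complex II and 1.85 and 2.15 for complex IV. Atp5e, the epsilon subunit of the ATP synthase stalk, gave 101 and 52 UMIs (138 and 115 CPM) at log2 ratios of 3.59 and 3.44 over the rest. Uqcr11 (52 and 53 UMIs) gave 3.06 and 3.94, and Cox8a (197 and 107 UMIs) 2.26 and 2.35. Sdha gave 0.16 and 0.14, and Ndufs4 -0.26 with an interval of -0.62 to 0.07 in NFD. The 1 member at least 2-fold lower was Atp5o under the identifier that overlaps its neighbours (15 and 9 UMIs, -1.47 and -1.48), beside 7.35% of all genes. Ependymal-like nuclei had 34 of 79 members at least 2-fold higher, beside 15.7%, and 0 lower, beside 11.2%, again with 0 of complex II and with Atp5e (3.28 and 3.43) and Uqcr11 (2.91 and 3.11) far above the rest. Cluster 19 had 61 of 79, beside 8.01%.

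In neuron-like nuclei as a whole, set against all other nuclei by the same rule, 24 of 79 were lower, beside 17.2% of all genes, and 0 higher, beside 4.58%. The other nuclei included the granule neuron-like ones, so this contrast does not set all neurons against all other cells. Between 0 and 6 members passed in either direction in each group that follows. GABAergic-like nuclei had 0 higher, beside 0.593%, and 1 lower, beside 7.91%, and the glutamate transporter clusters 0 higher, beside 0.881%, and 1 lower, beside 7.24%. That gene was Ndufa4l2 in both, a member only through its UMIs in the endothelial-like cluster. Serotonergic-like nuclei had 0 higher, beside 1.87%, and 3 lower (Atp5e, Cox6c2 and Ndufa1), beside 7.03%, and a median member ratio of -0.51 in NFD and -0.38 in HFD. Granule neuron-like nuclei, read in the HFD library alone, had 0 higher, beside 6.35%, and 6 lower, beside 21.3%. Among glial groups, astrocyte-like nuclei had 1 higher (Cox6b2), beside 6.88%, and 0 lower, beside 7.48%, and oligodendrocyte-like nuclei 0 higher, beside 4.22%, and 0 lower, beside 1.79%. Oligodendrocyte precursor-like nuclei had 0 higher, beside 3.66%, and 2 lower (Cox7b and Ndufv2), beside 4.75%, and microglia-like nuclei 0 higher, beside 8.59%, and 1 lower (Atp5o), beside 4.81%. Fibroblast-like nuclei had 1 higher (Ndufa4l2, from 3 UMIs in each library), beside 3.8%, and 0 lower, beside 2.99%. Apart from the lower count in neuron-like nuclei as a whole, these shares lie below those of all genes.

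Promoter windows are given for members with high and low ratios in this cluster, chosen after the values were seen and not the extremes of the range. They are those of Cox6a1, a complex IV subunit at 149 and 166 CPM in the endothelial-like cluster and log2 ratios of 2.63 and 2.95 over the rest, Ndufb7 at 3.13 and 3.56, and Sdha, which hardly differed. The windows are the 250 bases before the RefSeq gene start, 5′ to 3′ on the gene's strand (GRCm38.p6, RefSeq), at chr5:115348959-115349208 (minus strand), chr8:83566508-83566757 (plus strand) and chr13:74350241-74350490 (minus strand). Gene starts in the annotation of the deposited files fall within these windows. Capitals mark the core of the NRF-1 motif (GCGCA, any base N, GCGC) and CCGGAAG, the core of the ETS motif that NRF-2 also binds, each searched on both strands.
Cox6a1: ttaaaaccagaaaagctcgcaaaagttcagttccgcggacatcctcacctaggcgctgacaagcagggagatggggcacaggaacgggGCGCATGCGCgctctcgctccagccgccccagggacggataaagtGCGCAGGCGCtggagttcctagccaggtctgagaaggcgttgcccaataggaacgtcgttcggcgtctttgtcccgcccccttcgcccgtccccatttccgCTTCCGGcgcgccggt
Ndufb7: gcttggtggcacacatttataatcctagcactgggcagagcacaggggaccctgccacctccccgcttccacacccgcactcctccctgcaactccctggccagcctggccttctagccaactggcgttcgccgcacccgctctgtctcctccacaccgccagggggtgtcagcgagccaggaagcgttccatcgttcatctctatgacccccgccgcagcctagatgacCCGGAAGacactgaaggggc
Sdha: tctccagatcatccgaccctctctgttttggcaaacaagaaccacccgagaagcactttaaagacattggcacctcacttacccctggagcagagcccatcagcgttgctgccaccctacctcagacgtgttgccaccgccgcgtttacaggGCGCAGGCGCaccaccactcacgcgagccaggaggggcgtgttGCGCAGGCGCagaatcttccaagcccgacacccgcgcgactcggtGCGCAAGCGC
NRF-1 and NRF-2 are transcription factors known for their sites at respiratory chain genes. Of 68 windows of 63 member symbols, 14 (20.6%) held the NRF-1 letters, against 3.74% of all 32851 windows, and 12 (17.6%) held the ETS letters, against 6.91%. The Cox6a1 window holds 2 NRF-1 matches and 1 ETS match, the Ndufb7 window 1 ETS match, and the Sdha window 3 NRF-1 matches. A match describes letters only, and the genes with and without matches were not compared for level.

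Of the 6 pericyte markers, Rgs5 was the one among the genes leading the endothelial-like cluster. The nuclei of this cluster were divided by whether they held at least 2 UMIs of these markers. Nuclei with at least 2 (126 NFD and 58 HFD) gave 7123 and 6397 CPM, log2 ratios of 1.78 and 1.77 over the rest. Nuclei with fewer (130 NFD and 38 HFD) gave 2126 and 2045 CPM, a log2 ratio over the rest of 0.10 in HFD. The higher level thus lay in the nuclei with pericyte marker UMIs. Their HFD to NFD ratio was -0.16 (-0.23 to -0.08), opposite in sign to the ratio of the whole cluster, 0.11. The division also separates deep from shallow nuclei, with HFD medians of 5139.5 and 1248.5 UMIs.

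Members differed by gene structure. Genes with the shortest summed introns (0 to 3193 bases, 27 genes) had a median log2 ratio over the rest of 2.05 in the NFD endothelial-like cluster, those of 3283 to 8172 bases (26 genes) 1.44 and those of 8316 to 242055 bases (26 genes) 0.49. Other protein-coding genes gave 0.74, 0.31 and -0.14 over the same ranges, so both members and other genes followed this order, with members higher in each. HFD gave 2.35, 1.75 and 0.76. In the ependymal-like nuclei the NFD medians were 1.87, 1.02 and 0.17. The diet ratio also moved with introns, with medians of -0.22, -0.19 and -0.10 from short to long, and other protein-coding genes followed the same order (-0.12, -0.09 and -0.02). Spearman's rho over the 79 genes, which share libraries, was -0.56 in NFD endothelial-like nuclei, -0.53 in NFD ependymal-like nuclei and 0.36 for the diet ratio. Ndufs4, with 97756 intron bases (chr13:114287795-114388258, minus strand, GRCm38), and Ndufb7, with 434, stand near the 2 ends.

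**Figure D4:**
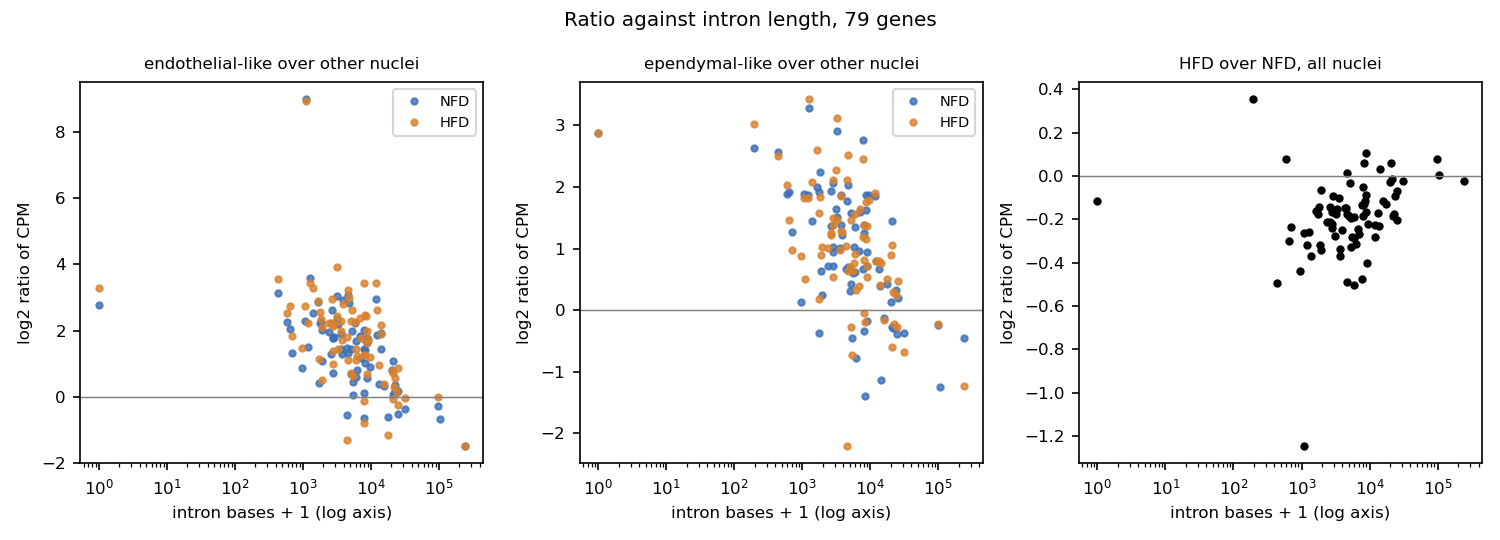
Log2 ratio of each of the 79 genes against summed intron bases plus 1 on a log axis, for the endothelial-like cluster over other nuclei, for the ependymal-like cluster over other nuclei (points per library) and for HFD over NFD in all nuclei. Points fall from left to right in the panels of the cell groups (rho of -0.56 and -0.53 in NFD) and rise slightly in the panel of the diets (0.36).

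Isoforms divided the cell groups. Ndufa4l2, the hypoxia-induced relative of Ndufa4 known from mural cells (chr10:127514967-127517154, plus strand), had 74 UMIs in NFD and 37 in HFD in the endothelial-like cluster beside 119 and 55 of Ndufa4. It made up 38.3% (31.5 to 45.6) and 40.2% (30.1 to 51.0) of the pair there, and 0.323% and 0.434% in neuron-like nuclei (4 and 5 UMIs). In astrocyte-like nuclei 0 UMIs were counted in either library, and in the 59 and 81 Ndufa4 UMIs of cluster 19 the isoform was likewise at 0. Fibroblast-like nuclei held 3 UMIs of Ndufa4l2 in each library beside 1 and 2 of Ndufa4. The part of free RNA in the neuron-like share was not tested. Of the cluster's UMIs, 71 and 36 came from nuclei with at least 2 pericyte marker UMIs. Since Ndufa4l2 reached 100 UMIs only through this cluster, its place there was set by the selection. Its ratio over all nuclei, -1.25 (-1.80 to -0.71; 82 and 46 UMIs), became 0.07 (-0.85 to 0.94) with UMIs per nucleus matched within clusters. Unmatched, the ratio within the endothelial-like cluster was -0.31 (-0.92 to 0.28). Among its nuclei with at least 2 pericyte marker UMIs it was -0.70 (-1.32 to -0.10; 149 and 91.5 CPM). The cluster itself held 256 NFD and 96 HFD nuclei.

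Cox4i2, the isoform of Cox4i1 known from lung and oxygen-responsive cells (chr2:152754173-152765037, plus strand), was counted mainly in the same cluster. The endothelial-like cluster held 34 NFD and 22 HFD UMIs (46.6 and 48.8 CPM), all of them in nuclei with at least 2 pericyte marker UMIs. Neuron-like nuclei held 6 and 4, and cluster 19 held 1 and 2 (8.91 and 7.53 CPM). Cox4i2 can be set against no partner, since Cox4i1 is listed at 0.

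**Figure D5:**
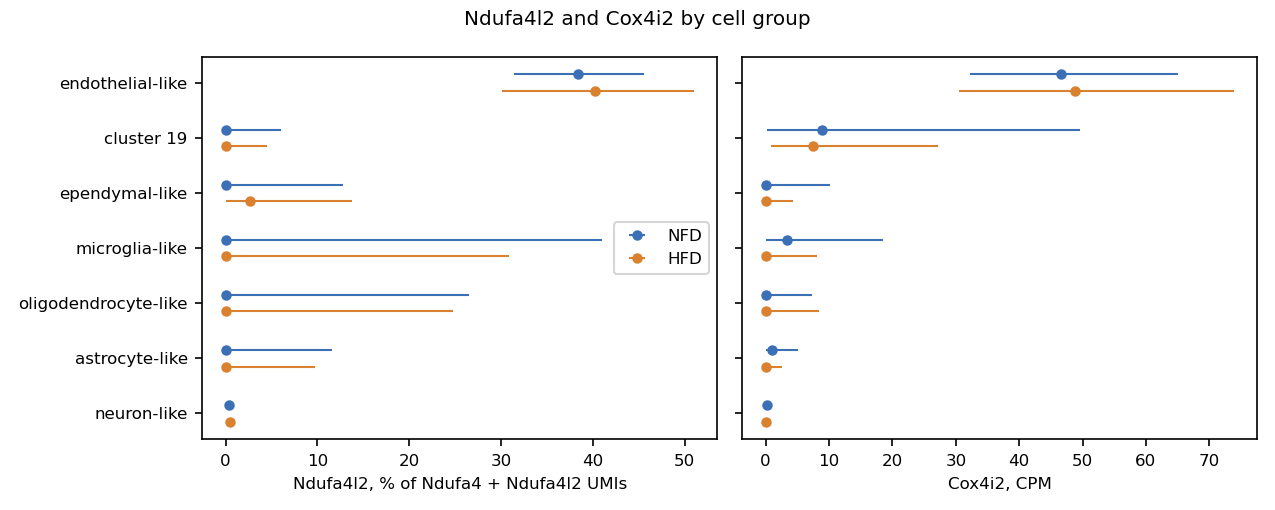
Ndufa4l2 as a percent of Ndufa4 plus Ndufa4l2 UMIs (bars, 95% Clopper-Pearson interval) and Cox4i2 CPM (bars, 95% Poisson interval) by cell group and library. The endothelial-like cluster has the highest values of the groups shown, 38.3% and 40.2% for Ndufa4l2, while the wide intervals of microglia-like nuclei (Ndufa4l2) and of cluster 19 (Cox4i2) reach its own.

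Other isoform pairs did not separate neurons from all other cells. Cox7b2, the relative of Cox7b, made up 10.5% and 12.7% of the pair in neuron-like nuclei (251 NFD and 330 HFD UMIs). Astrocyte-like nuclei gave 8.57% and 14.3% (6 and 13 UMIs) and oligodendrocyte-like nuclei 13.0% and 9.09% (3 and 2 UMIs), while the endothelial-like cluster held 3 and 0 of its UMIs and ependymal-like nuclei 1 and 0. Cox6b2 made up 5.19% and 6.18% of the Cox6b pair in neuron-like nuclei, among them 7.80% and 7.73% in GABAergic-like nuclei. Astrocyte-like nuclei gave 17.9% and 22.7% (5 and 10 UMIs) and ependymal-like nuclei 8.11% and 19.6% (3 and 11 UMIs). The astrocyte-like shares of Cox7b2 and Cox6b2 include cluster 21, where GABA and glutamate transporter genes were higher than in cluster 8. At 0 UMIs were serotonergic-like nuclei, beside 51 and 59 of Cox6b1, and the endothelial-like cluster, beside 60 and 57. The genes of the c subunit, which encode the same mature protein, divided as 34.6%, 18.5% and 46.9% for Atp5g1, Atp5g2 and Atp5g3 in NFD and 32.5%, 20.1% and 47.4% in HFD. In the endothelial-like cluster Atp5g2 made up 6.10% and 8.00% (5 and 4 UMIs) of the c subunit UMIs. The muscle isoforms Cox7a1 (12 and 26 UMIs) and Cox6a2 (2 and 2 UMIs) were too few to compare between groups.

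With every nucleus thinned to 2000 UMIs (6359 NFD and 5314 HFD nuclei), 97.2% of NFD and 96.4% of HFD nuclei held at least 1 member UMI, with a median of 4 and 3 members per nucleus. Unthinned, 98.1% of nuclei held a member UMI in each library, with medians of 8 and 12. Ndufs4 was counted in 20.9% and 22.4% of thinned nuclei. In GABAergic-like nuclei the thinned mean was 4.68 member UMIs in NFD and 4.08 in HFD, and in the endothelial-like cluster 11.7 and 12.8. Thinning left out 145 NFD and 38 HFD endothelial-like nuclei, and 49 and 6 GABAergic-like ones. The endothelial-like means thus describe the deeper nuclei of that cluster.

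Related lists differed in their medians. Over all nuclei, ribosomal protein genes, mitochondrial ribosomal genes, electron carriers and assembly factors lay near the members' -0.17. Citric acid cycle genes, regulators and mitochondrially encoded subunits lay near the -0.04 of all genes. Of 90 measured ribosomal protein genes 28 were lower and 0 higher, with a median log2 ratio of -0.18, and of 74 mitochondrial ribosomal genes 9 were lower and 1 higher (median -0.18). Assembly factors, which build the complexes, gave 6 lower and 0 higher of 45 (median -0.13), from Coa6 at -0.56 and Lyrm7 at -0.48 to Ndufaf5 and Ndufaf2 at 0.26 each. Electron carriers and their enzymes gave 4 lower and 0 higher of 14 (median -0.15), with Coq8a at -0.47, Etfa at -0.46 and Coq8b at 0.16. Citric acid cycle genes gave 1 lower of 13 (median -0.05), with Suclg2 lowest at -0.57 and Suclg1 at 0.16. Regulators of mitochondrial biogenesis gave 1 lower of 13 (median -0.06), from Polrmt, the mitochondrial RNA polymerase, at -0.36 to Ppargc1b and Sp1 at 0.15 each. Mitochondrially encoded subunits gave 2 lower and 3 higher of 13 (median -0.02), with mt-Nd4l at -0.40, mt-Nd5 at -0.39, mt-Atp6 at 0.44 and mt-Nd3 at 0.48. Their median differed by cell group. It was -0.22 in neuron-like nuclei, -0.21 in GABAergic-like nuclei and -0.28 in the glutamate transporter clusters. The members' medians there were -0.18, -0.24 and -0.21. With fewer subunits measured, it was -0.77 in serotonergic-like, -0.87 in microglia-like, 0.05 in ependymal-like, 0.35 in astrocyte-like and 0.46 in endothelial-like nuclei. The counts of these lists, over all nuclei, are read beside the 11.6% and 4.56% of all genes given for the members.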

How the data were processed

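The vlPAG nuclei of 1 NFD and 1 HFD pool of 18 mice each were measured by 10x 3′ sequencing. Gene-by-barcode matrices of UMI counts were deposited by the authors, who ran Cell Ranger (version 4.0.0 by the file header) on GRCm38, with bcl2fastq 5.01 and Seurat 3.1.1 also named in the submitters' processing notes. No source used here states whether reads in introns were counted. Intronic counting would weight long-intron genes, and gene overlaps can remove reads. No normalized values were used.

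Barcodes with more than 500 UMIs and under 20% mitochondrially encoded UMIs were kept, which left out 125 NFD and 491 HFD barcodes. Nuclei were clustered with Seurat 5.3.0 (2000 variable genes without the members, listed pathway, mitochondrial and ribosomal genes, 20 principal components, resolution 0.5). Clusters were called X-like from fixed markers where at least 3 markers were counted in at least 10% of nuclei. Cluster 12 passed for ependymal markers but was left unnamed. Doublets were kept, and as an alternative the 6% of nuclei with the highest Scrublet scores (scanpy 1.11.5) were removed. UMIs were summed per library and group into CPM with exact Poisson intervals, shares with Clopper-Pearson intervals and ratios with intervals from the binomial conditional on the sum (scipy 1.17.1, 95%). Weighted and depth-matched values keep the interval width of the unweighted counts. A count of 0 does not show absence, since its exact upper limit lies above 3 counts. With 1 library per diet no test was made. Counts of 16345 genes were simulated for HFD against NFD as Poisson draws, the model that the interval assumes. The interval covered the set ratio in 95.4% of 16145 unchanged genes, which were called in 1.24%, and 38% of genes set at a fold of 0.8 were called. Such draws check the calculation and hold counting error alone, so 1.24% is not a rate of false calls in these data. Named genes were all of complex II, the isoform pairs, and in each complex the 3 highest and 3 lowest members by diet ratio and the 3 of widest range over groups, among genes with at least 200 UMIs (the 2 highest and 2 lowest in other lists). Examples outside that rule, among them those within single cell groups and at matched depth, and the printed promoters were named after their values were seen. Members and lists were chosen with earlier results of these data known.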

Additional observations from a re-analysis of the deposited data

Results flagged for a closer look

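The summed HFD to NFD log2 ratio of the 79 genes was 0.11 in the endothelial-like cluster and -0.21 in GABAergic-like nuclei, opposite in sign between the 2 groups. With 1 library per diet the difference was not tested. The endothelial-like value turned to -0.16 among nuclei with at least 2 pericyte marker UMIs and to -0.01 with UMIs per nucleus matched, while the GABAergic-like value was -0.08 when matched.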

How the results depend on the processing

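No paired analysis was possible because each diet gave 1 library, and no replicate could be left out. The log2 ratio of all 79 genes, -0.16, was -0.18 with totals without mitochondrial genes and Malat1, -0.071 with nuclei weighted equally, -0.092 thinned, -0.18 with cell groups weighted, -0.13 with the same mitochondrial share distribution, -0.038 with the same UMI distribution and -0.072 matched within clusters, and -0.093 over all deposited barcodes. The 12 members called lower, beside 11.6% of all genes, became 4 when matched, beside 8.66%, where fewer nuclei were used. They became 3 with nuclei weighted equally and 5 over all deposited barcodes, settings where the share of all genes was not counted. The GABAergic-like count went from 23, beside 10.5% of all genes, to 7, beside 7.9%. That of the glutamate transporter clusters went from 24, beside 11.3%, to 6, beside 8%. The endothelial-like log2 level over other NFD nuclei, 1.38, was 1.004 with equal weight, 1.48 thinned and 1.78 without nuclei under 2 pericyte marker UMIs. The Ndufa4l2 share, 38.3%, was 30.2% thinned. Signs reversed for complex I with the same UMI distribution (0.0050), for the endothelial-like ratio (-0.16 without nuclei under 2 pericyte marker UMIs and -0.0071 matched) and for the ependymal-like ratio with equal weight (0.052), 30 principal components (0.085) and a resolution of 1.0 (0.13). The cause was not tested. Of 222 alternative values of single members, 205 kept their sign. The UMI-matched, pericyte, cluster 19, overlap, shared-barcode and all-barcode alternatives were chosen after seeing the data. Depth limits small groups: 14 members in astrocyte-like and 0 in microglia-like nuclei reached 100 UMIs.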
